A study of Mus musculus with 8 samples.

Results

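The annexins are a family of proteins that bind membranes rich in acidic phospholipids when calcium rises. Their mRNAs were examined in spleen XCR1+ dendritic cells, the conventional dendritic cells known for taking up dying cells and cross-presenting their antigens. The family members considered were Anxa1, Anxa2, Anxa3, Anxa4, Anxa5, Anxa6, Anxa7 and Anxa11, which are 8 of the 19938 genes with a single symbol on the arrays. Each was read from its annotated row, and for Anxa6, the one member with 2 rows, the row with the higher mean was used.

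Fractions of these cells had been sorted from the spleens of untreated reporter mice whose Il12b gene carries EYFP, a yellow fluorescent protein, and each sorted sample was put on 1 array. The CCR7+Il12b+ fraction (2 arrays) was positive for CCR7, the chemokine receptor gained in maturation, and for the reporter. The CCR7+Il12b- fraction (3 arrays) was sorted as positive for CCR7 and negative for the reporter, and the immature fraction (3 arrays) as negative for both. All were negative for lineage markers, negative or low for BST2, high for CD11c and positive for CD8α, and the series title gives the aim as following maturation that occurs in the steady state. The sources used here do not give the age of the mice or whether animals were pooled, so p-values measure the spread between arrays, which may be technical.

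Annexins share a core of repeats that holds the calcium and membrane sites, and differ in the N-terminal tail that binds partners such as S100 proteins. In cells of the myeloid lineage they are known for roles in vesicle traffic, repair of the plasma membrane and the handling of phosphatidylserine on dying cells. Secreted annexin A1 is a ligand of formyl peptide receptors and is known for restraining inflammation.

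The arrays separated by fraction. On the leading principal component (77.1% of the variance) CCR7+Il12b+ samples lay at 52.2 and 53.6 and immature samples between -55.8 and -47.8. CCR7+Il12b- replicate 3 stood apart from its group, at 30.1 against 8.2 and 13.4 for replicates 1 and 2, on the side of the CCR7+Il12b+ arrays. Background was marked at 4.98 on the log2 scale, below which lay the means of 95% of 1194 Olfr and Vmn genes, odorant and pheromone receptors.

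The names give the sort, not the absence of the mRNA. Il12b was at 12.35 and 12.22 in CCR7+Il12b+ cells, 10.84, 10.82 and 10.77 in CCR7+Il12b- cells and 6.88, 7.09 and 7.11 in immature cells (log2 levels). It was thus 13.7-fold higher in CCR7+Il12b- than in immature cells (limma adjusted p = 8.3e-09) and 2.78-fold higher in CCR7+Il12b+ than in CCR7+Il12b- cells (adjusted p = 0.000124). Ccr7 averaged 12.61 in CCR7+Il12b+, 12.22 in CCR7+Il12b- and 8.64 in immature cells, so both mRNAs lay above the background mark in every fraction.

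All 11 markers of XCR1+ dendritic cells had means above that mark in every fraction. For Itgax (CD11c) and Cd8a this follows from the sort, which used their proteins, and Itgae was near the mark in CCR7+Il12b+ cells (5.01). Of the 11 markers, 8 were called lower and 1 higher in CCR7+Il12b+ than in immature cells. There the call of Cd8a (-0.31) ended under 15 of 19 alternatives. In CCR7+Il12b- against immature cells 5 were lower and 1 higher. The 4 measured plasmacytoid dendritic cell markers were called lower in both CCR7+ fractions, with the call of Bst2 lost under 6 of 19 alternatives in CCR7+Il12b+ and 5 of 19 in CCR7+Il12b- cells (adjusted p up to 0.138 in the latter). Both measured erythroid markers were called higher. The plasmacytoid list averaged 6.06 to 6.11 in CCR7+Il12b+, 6.38 to 6.68 in CCR7+Il12b- and 7.50 to 7.73 in immature samples, and the erythroid list 5.56 to 5.74, 5.64 to 5.74 and 4.92 to 5.03 in the same fractions (log2 levels). Of 6 markers of CD11b+ dendritic cells, 2 were higher and 1 lower in CCR7+Il12b+ cells, while in CCR7+Il12b- cells 3 were higher and 1 lower. Beside these marker counts, 32.0% of all genes were called in CCR7+Il12b+ and 23.6% in CCR7+Il12b- against immature cells.

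Among 4 B cell markers CCR7+Il12b+ cells had 1 higher and 1 lower, and CCR7+Il12b- cells had 3 higher. Of 4 T cell markers 2 were lower in CCR7+Il12b+ cells and 1 was higher in CCR7+Il12b- cells. Of 5 NK cell markers limma called 0 in CCR7+Il12b+ cells (1 at an unadjusted p under 0.05) and 1 higher in CCR7+Il12b- cells. Among these calls Cd3d and Cd79a lay below the background mark in every fraction. Alternatives ended the calls of Cd79b (12 of 19 in CCR7+Il12b+ and 7 of 19 in CCR7+Il12b- cells), Cd3d (4 of 17), Cd3e (8 of 18), Nkg7 (7 of 18), Cd5 (1 of 19) and Cd79a (1 of 17). The B cell marker Ms4a1 kept its calls under all 19 alternatives. It was 1.88-fold higher in CCR7+Il12b+ (limma adjusted p = 0.00328) and 2.85-fold higher in CCR7+Il12b- than in immature cells (0.000104). Its means of 7.90, 8.50 and 6.99 in CCR7+Il12b+, CCR7+Il12b- and immature cells lay above the mark. The shares of 32.0% and 23.6% of all genes called apply to these counts too, and no list was tested against them. The part of cells of these types in the annexin results was not tested.

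The family split into risers and fallers. Relative to immature cells, Anxa3 and Anxa4 rose in both CCR7+ fractions and Anxa2 rose in CCR7+Il12b+ cells. Anxa1 and Anxa6 fell in both CCR7+ fractions, Anxa11 fell in CCR7+Il12b+ cells and Anxa7 in CCR7+Il12b- cells. Anxa5 passed the test in no comparison. Tests were made with limma's moderated test on log2 values, and calls were at an adjusted p under 0.05 over all 19938 genes.

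**Figure D1:**
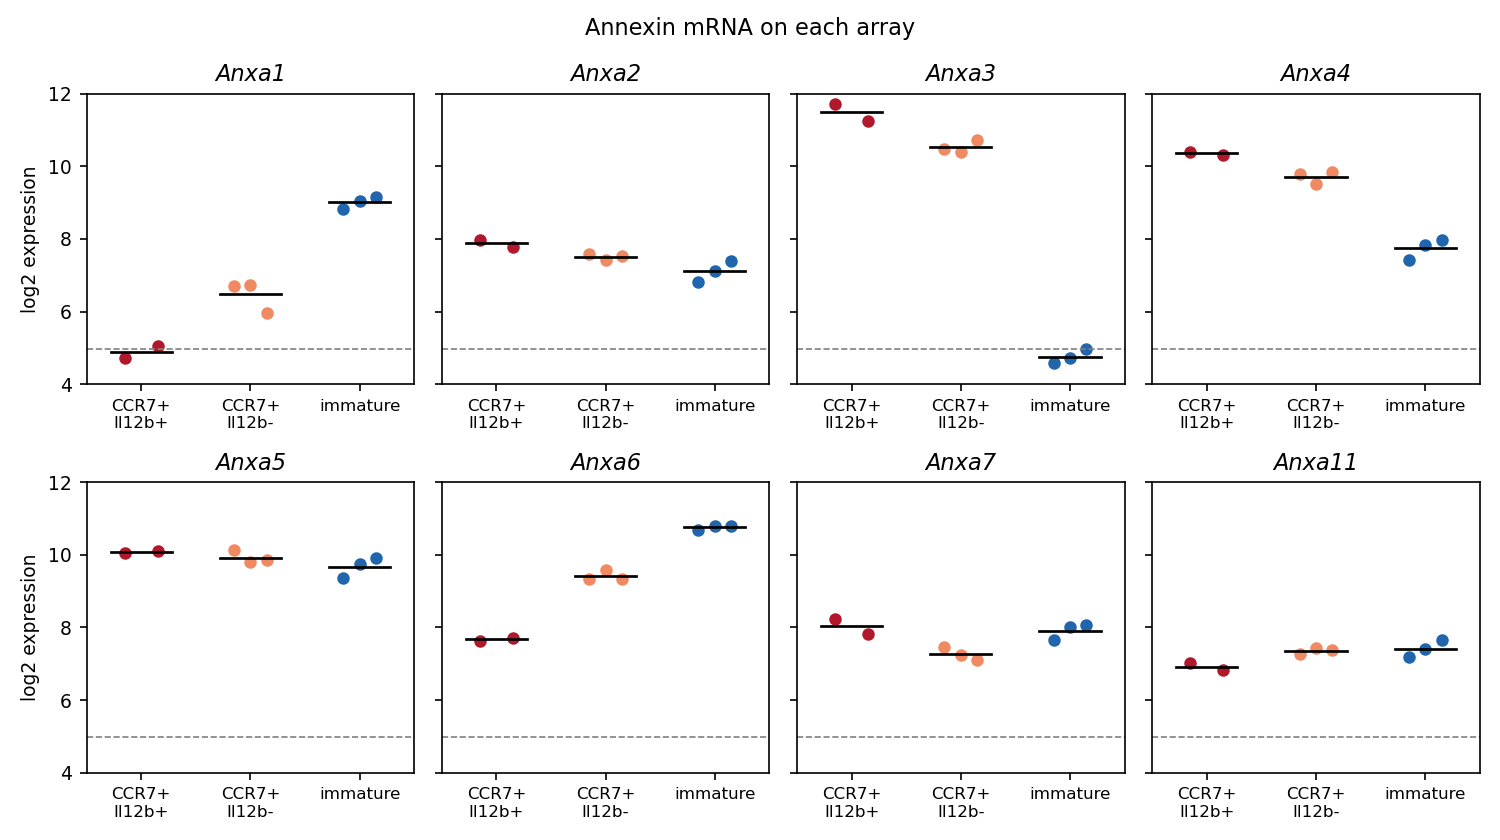
Log2 expression (vertical axis) of the 8 annexins on each array, with 1 point per array and 1 panel per gene. The fractions run along the horizontal axis, black lines are group means, and the dashed line is the background mark of 4.98. Anxa3 lies between 10.40 and 11.71 in CCR7+ cells and at or below the mark in immature cells, while Anxa1 lies at 4.71 and 5.06 in CCR7+Il12b+ cells and at 8.83 to 9.15 in immature cells.

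Promoter sequences of the RefSeq annotation (GRCm38.p6) were matched for 6 of the 8 genes, Anxa1, Anxa2, Anxa4, Anxa5, Anxa7 and Anxa11, with 2 windows each for Anxa4 and Anxa7. A window spans 250 bases before and 50 after a transcription start. The 3 printed here are those with a match to a motif marked by capitals. The other Anxa4 window and those of Anxa5, Anxa7 and Anxa11 hold none of these motifs. The printed windows belong to risers (Anxa4 and Anxa2) and to a faller (Anxa1). They lie at chr6:86793535-86793834 (minus strand) for Anxa4, chr9:69453433-69453732 (plus strand) for Anxa2 and chr19:20390622-20390921 (minus strand) for Anxa1, each written 5′ to 3′ on the strand of the gene. Capitals mark matches on either strand to the consensus NF-kB site, an AP-1 motif (TGANTCA) or a TATA box (TATAAA).
Anxa4: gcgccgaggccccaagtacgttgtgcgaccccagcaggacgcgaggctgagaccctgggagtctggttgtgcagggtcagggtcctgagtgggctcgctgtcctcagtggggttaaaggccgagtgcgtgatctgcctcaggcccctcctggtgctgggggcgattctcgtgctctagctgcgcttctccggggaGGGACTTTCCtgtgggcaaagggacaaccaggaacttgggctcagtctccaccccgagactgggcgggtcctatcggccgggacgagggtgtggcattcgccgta
Anxa2: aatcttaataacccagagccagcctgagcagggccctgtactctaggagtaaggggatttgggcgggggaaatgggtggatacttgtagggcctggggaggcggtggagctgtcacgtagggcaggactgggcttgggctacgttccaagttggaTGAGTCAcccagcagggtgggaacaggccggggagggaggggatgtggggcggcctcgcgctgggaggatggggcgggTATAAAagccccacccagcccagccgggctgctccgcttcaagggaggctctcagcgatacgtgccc
Anxa1: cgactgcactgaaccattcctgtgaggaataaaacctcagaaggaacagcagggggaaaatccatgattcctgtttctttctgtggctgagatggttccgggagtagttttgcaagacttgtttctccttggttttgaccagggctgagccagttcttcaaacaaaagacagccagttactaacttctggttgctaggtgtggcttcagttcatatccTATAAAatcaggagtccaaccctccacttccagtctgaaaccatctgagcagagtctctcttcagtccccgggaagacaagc

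The capitals in the Anxa4 window are the NF-kB site, beginning 55 bases before its start. That exact sequence, with every base fixed, is found in 0.155% of the 32851 mouse windows and in no other annexin window. A looser NF-kB pattern, which leaves some bases free and which the same Anxa4 site matches, is found in 1.63% of all windows. The looser pattern is also in no other annexin window. The Anxa2 window holds TGAGTCA beginning 95 bases before the start and TATAAA beginning 17 bases before it, and the Anxa1 window holds TATAAA beginning 32 bases before it. Those motifs occur in 7.81% (AP-1) and 13.6% (TATA box) of all windows. The E-box CACGTG was in 1 of the 8 annexin windows, that of Anxa7, against 7.15% of all windows. The GC box GGGCGG was in 5 of the 8, from Anxa2, Anxa4, Anxa7 and Anxa11, against 35.7% of all. A match describes these letters only.

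Anxa3, whose protein is known from human neutrophils as a factor that aggregates granules, was the steepest riser of the family. It was at 11.71 and 11.25 in CCR7+Il12b+ cells, at 10.46, 10.40 and 10.71 in CCR7+Il12b- cells and at 4.58, 4.72 and 4.98 in immature cells (log2 levels). No array of one fraction overlapped with another, and the immature level could not be told from background. The rise was therefore at least 90.8-fold in CCR7+Il12b+ cells (adjusted p = 2.92e-09) and at least 46.6-fold in CCR7+Il12b- cells (adjusted p = 6.95e-09), with immature arrays raised to the mark where they lay under it. Between the CCR7+ fractions Anxa3 was 1.95-fold higher with the reporter, a log2 difference of 0.96 ± 0.17 (SE, adjusted p = 0.00669), which became 0.73 (adjusted p = 0.0695) without CCR7+Il12b+ replicate 1.

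No neutrophil marker passed the test beside Anxa3. Of 8 such genes (S100a8, S100a9, Ly6g, Elane, Mpo, Ltf, Camp and Ngp) limma called 0 in each comparison, with 1 at an unadjusted p under 0.05 in either CCR7+ fraction against immature cells and 0 between the CCR7+ fractions. Their mean log2 level was 4.63 to 4.69 in CCR7+Il12b+ samples, 4.60 to 4.77 in CCR7+Il12b- samples and 4.43 to 4.70 in immature samples, and the means of Ly6g, Ltf and Ngp lay below the background mark in every fraction. The share of all genes called was 32.0% and 23.6% for CCR7+Il12b+ and CCR7+Il12b- against immature cells and 7.08% between the CCR7+ fractions.

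Anxa4, which binds membranes in a calcium-dependent way and is known from secretory epithelia, rose less steeply. Its log2 levels were 10.40 and 10.30 in CCR7+Il12b+ cells, 9.79, 9.50 and 9.83 in CCR7+Il12b- cells and 7.42, 7.83 and 7.98 in immature cells. All arrays of a fraction lay apart from those of the others. Anxa4 was 6.09-fold higher in CCR7+Il12b+ than in immature cells (log2 change 2.61 ± 0.17 SE, adjusted p = 8.11e-07) and 3.90-fold higher in CCR7+Il12b- than in immature cells (1.96 ± 0.15, adjusted p = 6.93e-06). Between the CCR7+ fractions the difference was 0.64 ± 0.17 (adjusted p = 0.0464). That call ended under 8 of 19 alternatives. It was lost with arrays centred on their medians (adjusted p = 0.0975), array weights (0.0512) or a random block (0.0606). It was also lost when either CCR7+Il12b+ replicate was left out (adjusted p = 0.194 without replicate 1 and 0.125 without replicate 2), without CCR7+Il12b- replicate 1 or 2 (0.0785 and 0.157) and without immature replicate 2 (0.0748).

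Anxa2, the partner of S100A10 in a complex at endosomes and the cell surface that binds plasminogen, rose less than either. Its log2 levels were 7.98 and 7.78 in CCR7+Il12b+ cells, 7.59, 7.41 and 7.52 in CCR7+Il12b- cells and 6.81, 7.13 and 7.38 in immature cells. The 3 fractions did not overlap, although the lowest CCR7+Il12b- and highest immature arrays were next to each other. The rise in CCR7+Il12b+ over immature cells was 1.71-fold (0.77 ± 0.16, adjusted p = 0.00317). The difference of 0.40 ± 0.14 between CCR7+Il12b- and immature cells had an adjusted p of 0.0688 and passed without immature replicate 3 (0.027) and after loess or quantile normalization (0.0177 and 0.0142). That of 0.37 between the CCR7+ fractions had an adjusted p of 0.244 and a 95% interval of 0.02 to 0.72.

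Anxa1, the annexin that binds formyl peptide receptors, fell the most of the family against immature cells. It was at 4.71 and 5.06 in CCR7+Il12b+ cells, at 6.71, 6.74 and 5.96 in CCR7+Il12b- cells and at 8.83, 9.05 and 9.15 in immature cells (log2 levels). The fractions did not overlap, and CCR7+Il12b- replicate 3 was the lowest of its group. Because the CCR7+Il12b+ mean of 4.89 lay below the background mark, the fall is a bound there, of at least 15.9-fold against immature cells (adjusted p = 2.28e-07) and at least 2.73-fold against CCR7+Il12b- cells (adjusted p = 0.00179). In CCR7+Il12b- cells Anxa1 was 5.82-fold lower than in immature cells (log2 change -2.54 ± 0.20 SE, adjusted p = 7.79e-06), and -2.28 ± 0.14 without CCR7+Il12b- replicate 3. Among 11678 genes measured above background in both of these fractions, 1 other gene fell further.

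Markers of monocytes and macrophages were measured beside the fall of Anxa1. In CCR7+Il12b+ against immature cells, 4 of 8 measured markers fell, Lyz2 (-3.11 ± 0.29), Ccr2 (at least 4.30-fold), Cd14 (at least 2.41-fold) and Csf1r (-0.58 ± 0.15), and 2 rose, Vcam1 (3.17 ± 0.19) and Spic (3.07 ± 0.24). In CCR7+Il12b- against immature cells 3 fell and 3 rose. Over all genes 17.9% were called lower and 14.1% higher in the first comparison, and 14.5% and 9.10% in the second. The list's mean log2 level was 6.31 to 6.50 in CCR7+Il12b+, 6.72 to 6.82 in CCR7+Il12b- and 6.34 to 6.68 in immature samples, with Mertk below the mark in every fraction. Csf1r lost its call when immature replicate 2, immature replicate 3 or CCR7+Il12b+ replicate 1 was omitted (adjusted p from 0.0521 to 0.0743). In sorted bulk samples fewer cells of a type cannot be told apart from less RNA per cell.

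Anxa6, the largest annexin, with a duplicated core and known links to endosomal cholesterol and to Ras inactivation, fell step by step along the fractions. Its log2 levels were 7.63 and 7.72 in CCR7+Il12b+ cells, 9.34, 9.58 and 9.33 in CCR7+Il12b- cells and 10.67, 10.79 and 10.80 in immature cells. The spread within each fraction was at most 0.25, far below the distance between fractions. Anxa6 was 8.43-fold lower in CCR7+Il12b+ than in immature cells (log2 change -3.07 ± 0.12 SE, adjusted p = 2.46e-08) and 2.52-fold lower in CCR7+Il12b- than in immature cells (-1.34 ± 0.11, adjusted p = 9.82e-06). It was 3.34-fold lower with than without the reporter among CCR7+ cells (-1.74 ± 0.12, adjusted p = 9.37e-05), where 47 of 12013 genes measured in both fractions fell further.

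The fall of Anxa6, and not only its size, depends on the row. Its second row was at 6.17 and 6.70 in CCR7+Il12b+ cells, 6.60, 6.43 and 6.67 in CCR7+Il12b- cells and 6.76, 6.54 and 6.54 in immature cells, with overlap between fractions. That row changed by -0.18, -0.05 and -0.13 in CCR7+Il12b+ against immature, CCR7+Il12b- against immature and CCR7+Il12b+ against CCR7+Il12b- cells. With the mean of both rows the changes were -1.63, -0.69 and -0.93, all still called. Such a mean carries the fall of the first row and is no separate test of the second.

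Anxa11, which binds the calcium sensor ALG-2 and tethers RNA granules to lysosomes, moved least among the called genes. Its log2 levels were 7.02 and 6.83 in CCR7+Il12b+ cells, 7.27, 7.42 and 7.38 in CCR7+Il12b- cells and 7.18, 7.41 and 7.65 in immature cells. CCR7+Il12b+ arrays lay below all others, while the other fractions overlapped. Anxa11 was 1.40-fold lower in CCR7+Il12b+ than in immature cells (-0.49 ± 0.15, adjusted p = 0.0243), a call that ended without immature replicate 2 (0.0643), immature replicate 3 (0.0937) or CCR7+Il12b+ replicate 2 (0.166). In CCR7+Il12b- against immature cells the difference was -0.06 (95% interval -0.34 to 0.23, adjusted p = 0.8), and between the CCR7+ fractions it was -0.43 (-0.76 to -0.11, adjusted p = 0.117).

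Anxa7, also called synexin and known for promoting vesicle fusion, had its lowest levels in the CCR7+Il12b- fraction. It was at 8.23 and 7.82 in CCR7+Il12b+ cells, at 7.45, 7.23 and 7.11 in CCR7+Il12b- cells and at 7.66, 8.01 and 8.06 in immature cells (log2 levels). The CCR7+Il12b+ and immature arrays overlapped, and every CCR7+Il12b- array lay below both. Anxa7 was 1.56-fold lower in CCR7+Il12b- than in immature cells (-0.65 ± 0.15, adjusted p = 0.00989) and 1.70-fold higher in CCR7+Il12b+ than in CCR7+Il12b- cells (0.76 ± 0.17, adjusted p = 0.0218). The first call reached 0.0502 without immature replicate 3. The second ended without CCR7+Il12b+ replicate 1 (0.168) or CCR7+Il12b- replicate 2 (0.074) and with arrays centred on their medians (0.0578). CCR7+Il12b+ and immature cells differed by 0.12 (95% interval -0.26 to 0.49, adjusted p = 0.641).

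Anxa5, best known as a probe for phosphatidylserine on dying cells, did not pass the test in any comparison. It was at 10.05 and 10.11 in CCR7+Il12b+ cells, 10.12, 9.80 and 9.85 in CCR7+Il12b- cells and 9.36, 9.74 and 9.92 in immature cells (log2 levels). CCR7+Il12b+ arrays lay above all immature ones, and CCR7+Il12b- arrays overlapped with both. The log2 difference was 0.40 (95% interval 0.03 to 0.77, adjusted p = 0.0931) for CCR7+Il12b+ against immature cells, 0.25 (-0.08 to 0.58, adjusted p = 0.28) for CCR7+Il12b- against immature cells and 0.16 (-0.21 to 0.53, adjusted p = 0.74) between the CCR7+ fractions. The first passed without immature replicate 3 (0.0456) and after loess normalization (0.0192). These intervals bound the change but do not show that the level stayed the same.

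**Figure D2:**
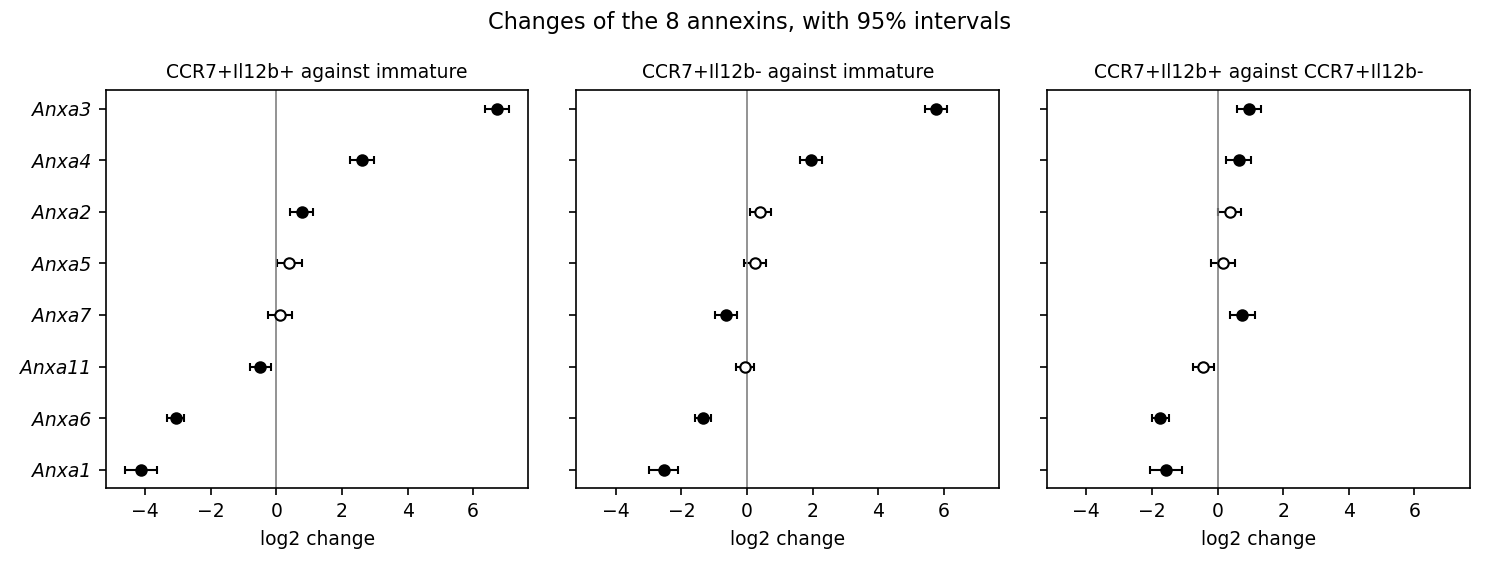
Log2 change (horizontal axis) of each annexin (vertical axis) in the 3 comparisons, with bars for 95% intervals of the limma fit; filled points passed at an adjusted p under 0.05. Values whose fold is given as a bound in the text (Anxa3 against immature cells, Anxa1 in CCR7+Il12b+ cells) are plotted as measured. Anxa3 and Anxa4 lie right of 0 and Anxa1 and Anxa6 left of 0 in every panel.

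Counted over the family, 6 of the 8 annexins were called in CCR7+Il12b+ against immature cells, 3 higher and 3 lower, where 32.0% of all genes were called (14.1% higher and 17.9% lower). In CCR7+Il12b- against immature cells 5 were called, 2 higher and 3 lower, against 23.6% of all genes (9.10% higher and 14.5% lower). Between CCR7+Il12b+ and CCR7+Il12b- cells 5 were called, Anxa3, Anxa4 and Anxa7 higher and Anxa1 and Anxa6 lower, against 7.08% of all genes (2.61% higher and 4.47% lower). Without CCR7+Il12b+ replicate 1 the last count was 2, Anxa1 and Anxa6, and without CCR7+Il12b- replicate 2 it was 3. Without CCR7+Il12b- replicate 3, which stood apart, the counts were 6, 5 and 5. The shares of all genes include genes below background in every fraction, while each of the 8 annexins had a group mean above it. Among the 12934 genes with such a mean, a fit to those genes alone called 6148, 4741 and 1521 in the 3 comparisons. The annexin counts in that fit were again 6, 5 and 5. Anxa8, Anxa9, Anxa10 and Anxa13, below background in every fraction and called in no comparison, are outside these counts.

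Markers of cell types moved in the comparison of the CCR7+ fractions as well, where 4.47% of all genes were called lower and 2.61% higher. In CCR7+Il12b+ against CCR7+Il12b- cells 7 of 11 XCR1+ dendritic cell markers were called lower, among them Tlr3 (-2.59 ± 0.34) and Xcr1 (-1.66 ± 0.25), with Cd8a (-0.44) lost under 9 of 19 alternatives. Also called lower were 3 of 6 CD11b+ dendritic cell markers, of which Clec4a4 lay below the mark in both fractions, 2 of 8 monocyte and macrophage markers (Lyz2, and Adgre1, lost under 6 of 18 alternatives), 1 of 4 B cell markers (Cd79b) and 1 of 4 plasmacytoid markers (Ccr9). Adgre1 and Ccr9 lay below the mark in CCR7+Il12b+ cells, so their falls are bounds, at least 1.29-fold and 1.33-fold. Calls ended under 10 of 17 alternatives for Clec4a4, 2 of 19 for Sirpa and 1 of 19 each for Cd209a, Lyz2 and Cd79b. No marker of these lists was called higher. Their part in the annexin differences between these fractions was not tested.

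With members on either side of 0, the median log2 change of the family was small. It was 0.26, 0.10 and 0.26 in the 3 comparisons in that order, beside 0.09, 0.06 and 0.02 for all genes. The median of the absolute change was 1.69, 0.99 and 0.70 for the annexins and 0.252, 0.184 and 0.134 for all genes. Values for all genes include those below background in every fraction, whereas the 8 annexins each lay above it in at least 1. For the 4 annexins below background in every fraction the median absolute change was 0.02, 0.05 and 0.14. Arrays of the compared fractions did not overlap for 7, 6 and 7 of the 8, against 57.1%, 41.3% and 29.6% of all genes. The first and second comparisons share the immature arrays.

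**Figure D3:**
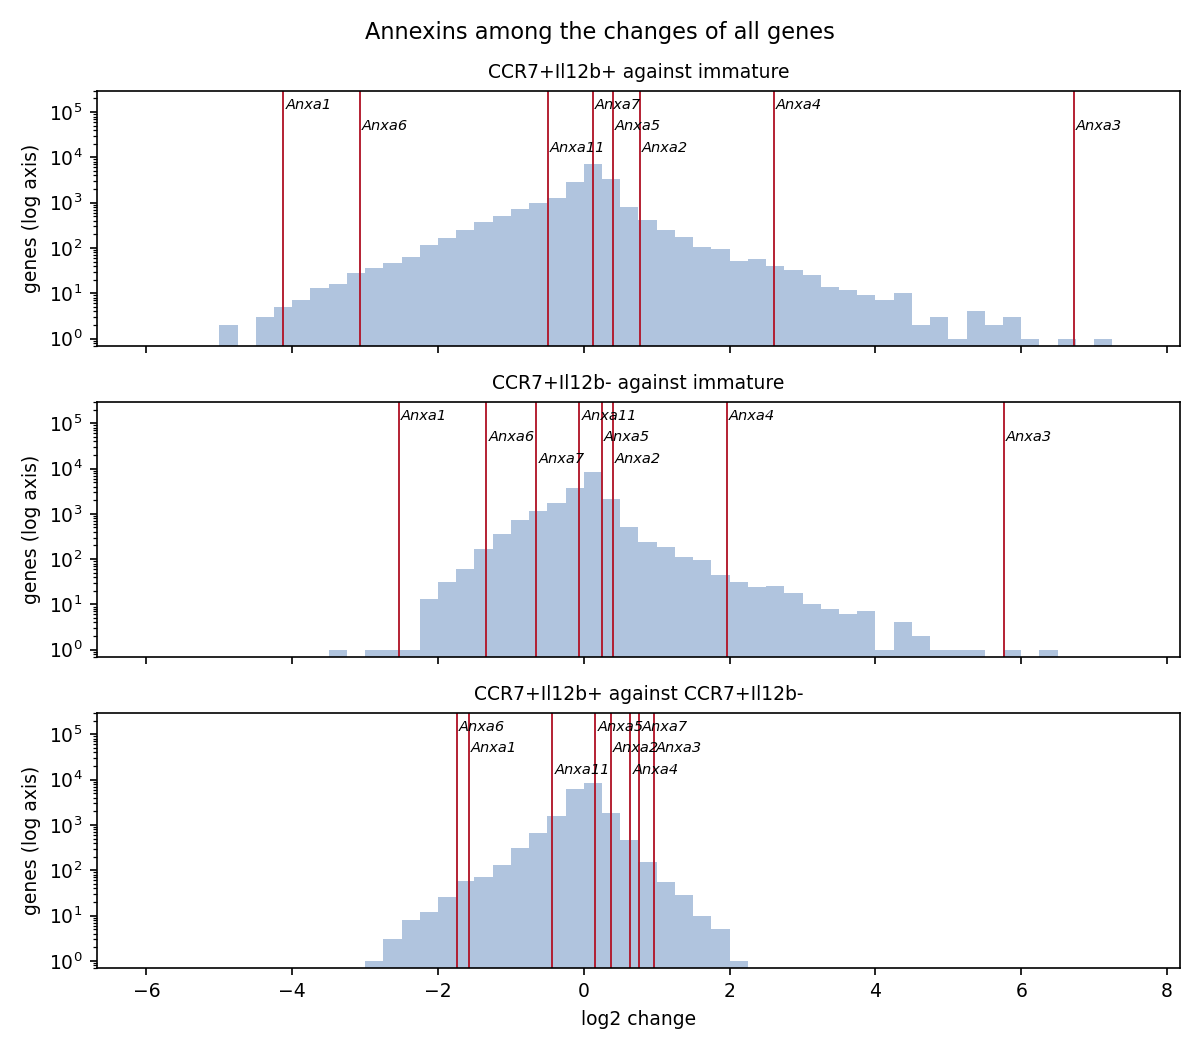
Number of genes (vertical log axis) by log2 change (horizontal axis, bins of 0.25) for all 19938 genes in each comparison, with red lines at the 8 annexins. Changes are plotted as measured, including genes below background in a fraction. Anxa3 at 6.72 and 5.76 and Anxa1 at -4.12 and -2.54 lie in the tails of the upper panels, with Anxa5, Anxa7 and Anxa11 near the centre.

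Within the CCR7+Il12b- fraction, replicate 3 had the value nearest to the CCR7+Il12b+ mean for 4 of the 8 annexins, Anxa1, Anxa3, Anxa4 and Anxa6, and replicate 1 for the other 4. For Anxa6 and Anxa4 replicates 3 and 1 were almost level (9.33 and 9.34 for Anxa6, 9.83 and 9.79 for Anxa4). Anxa1, Anxa3, Anxa4 and Anxa6 are the genes with the widest distance between fractions. The range among the 3 arrays was largest for Anxa1, at 0.79, and between 0.15 and 0.33 for the others.

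S100 proteins are small calcium sensors that bind the N-terminal tails of annexins. S100a10, whose protein pairs with annexin A2, fell while Anxa2 rose in CCR7+Il12b+ cells. It was at 6.01 and 5.90 in CCR7+Il12b+ cells, 7.29, 6.52 and 6.14 in CCR7+Il12b- cells and 7.75, 8.19 and 7.94 in immature cells (log2 levels), with every CCR7+ array below every immature one. The fall was 4.01-fold in CCR7+Il12b+ cells (adjusted p = 0.000139) and 2.48-fold in CCR7+Il12b- cells (adjusted p = 0.00217). S100a6, a partner of several annexins, fell 3.66-fold in CCR7+Il12b+ against immature cells (adjusted p = 0.000116) and differed by -0.24 ± 0.22 in CCR7+Il12b- cells (adjusted p = 0.479). S100a11, a partner of annexin A1, lay between 11.92 and 12.30 on all arrays and passed in no comparison.

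S100a4, which binds annexin A2, was highest in the CCR7+Il12b- fraction. It was at 8.86 and 8.81 in CCR7+Il12b+ cells, 10.39, 9.96 and 10.28 in CCR7+Il12b- cells and 8.74, 9.35 and 9.73 in immature cells. It rose by 0.94 ± 0.21 in CCR7+Il12b- over immature cells (adjusted p = 0.00812) and was lower by -1.38 ± 0.24 in CCR7+Il12b+ than in CCR7+Il12b- cells (adjusted p = 0.00597, and 0.051 without CCR7+Il12b+ replicate 1). In all, 2 of 6 S100 genes fell and none rose in CCR7+Il12b+ against immature cells, 1 rose and 1 fell in CCR7+Il12b- against immature cells, and 2 fell between the CCR7+ fractions. Over all genes 32.0%, 23.6% and 7.08% were called, so the S100 counts against immature cells were near that share. The list medians were -0.34, -0.18 and -0.39. S100b was below the mark in every fraction.

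Penta-EF-hand proteins are calcium sensors, some of which bind the tails of annexins A7 and A11. Gca, the gene of grancalcin, rose 19.8-fold in CCR7+Il12b+ cells (log2 change 4.31 ± 0.19, adjusted p = 5.52e-08) and 12.3-fold in CCR7+Il12b- cells (3.62 ± 0.17, adjusted p = 1.5e-07) over immature cells. Pdcd6, the gene of ALG-2 and thus of a partner of annexins A7 and A11, fell 1.75-fold in CCR7+Il12b+ against immature cells (-0.81 ± 0.18, adjusted p = 0.00446). Sri, the gene of sorcin, which binds annexin A7, rose by 0.60 ± 0.17 in the same comparison (adjusted p = 0.0168), a call that ended without CCR7+Il12b+ replicate 1 or with arrays centred on their medians (0.0921 to 0.13). Capn1 rose and Capn2 fell in that comparison, both by 1.41-fold to 1.49-fold, and the calls ended under 8 and 5 of 19 alternatives, among them several left-out arrays. Counts were 3 higher and 2 lower of 6 in CCR7+Il12b+ against immature cells, 1 higher in CCR7+Il12b- against immature cells and 0 between the CCR7+ fractions by limma, where 1 was at an unadjusted p under 0.05 and Gca had an adjusted p of 0.0553. Over all genes 32.0%, 23.6% and 7.08% were called, and 3 of the 5 calls in the first comparison (Sri, Capn1 and Capn2) were among those lost above.

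Annexins also bind the phosphatidylserine that flippases keep on the inner leaflet and scramblases expose. Atp11a, a flippase, rose 5.28-fold in CCR7+Il12b+ cells (2.40 ± 0.18, adjusted p = 2.36e-06) and 3.43-fold in CCR7+Il12b- cells (1.78 ± 0.16, adjusted p = 2.39e-05). Ano6, a calcium-activated scramblase, fell 4.32-fold (-2.11 ± 0.17, adjusted p = 3.51e-06) and 2.75-fold (-1.46 ± 0.15, adjusted p = 5.96e-05) in the same fractions against immature cells. Tmem30a, the shared subunit of flippases, fell by 0.72 and 0.49 on the log2 scale, with adjusted p = 0.00542 (0.0635 without CCR7+Il12b+ replicate 2) and 0.0328, and the second call ended under 6 alternatives (up to 0.122). Of 7 measured genes 1 rose and 3 fell in each CCR7+ fraction against immature cells, the third fall being Atp8a1 (-0.47 and -0.38), whose calls ended under 2 and 13 of 19 alternatives. Of all genes, 32.0% were called for CCR7+Il12b+ against immature cells and 23.6% for CCR7+Il12b- against immature cells. Xkr8, Plscr1 and Plscr3 passed in no comparison. Between the CCR7+ fractions only Ano6 was called (-0.65 ± 0.17, adjusted p = 0.0452), and 8 of 19 alternatives ended that call.

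Of the membrane repair genes Ahnak, Dysf, Myof, Syt7 and Trim72, only Myof was called, lower by -0.57 ± 0.13 in CCR7+Il12b- against immature cells (adjusted p = 0.0071), where 23.6% of all genes were called. Limma called 0 in either comparison with CCR7+Il12b+ cells, with 1 at an unadjusted p under 0.05 in each. All-gene shares there were 32.0% against immature and 7.08% against CCR7+Il12b- cells. Syt7 lay below the background mark in every fraction, Trim72 in CCR7+Il12b- and immature cells, and Dysf in immature cells. Ahnak, whose protein binds the annexin A2 and S100A10 complex, lay between 6.93 and 7.04 on all 8 arrays. Pla2g4a, the gene of the cytosolic phospholipase A2 that annexin A1 is known to inhibit, was at 4.51 and 4.45 in CCR7+Il12b+ cells, 5.18, 5.27 and 5.03 in CCR7+Il12b- cells and 5.45, 5.36 and 5.53 in immature cells. It fell at least 1.38-fold in CCR7+Il12b+ against immature cells (adjusted p = 8.08e-05). Formyl peptide receptor genes were not analysed here. The remaining annexin genes, Anxa8, Anxa9, Anxa10 and Anxa13, had means between 3.57 and 4.60, below background in every fraction, and 0 were called or at an unadjusted p under 0.05 in limma.

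**Figure D4:**
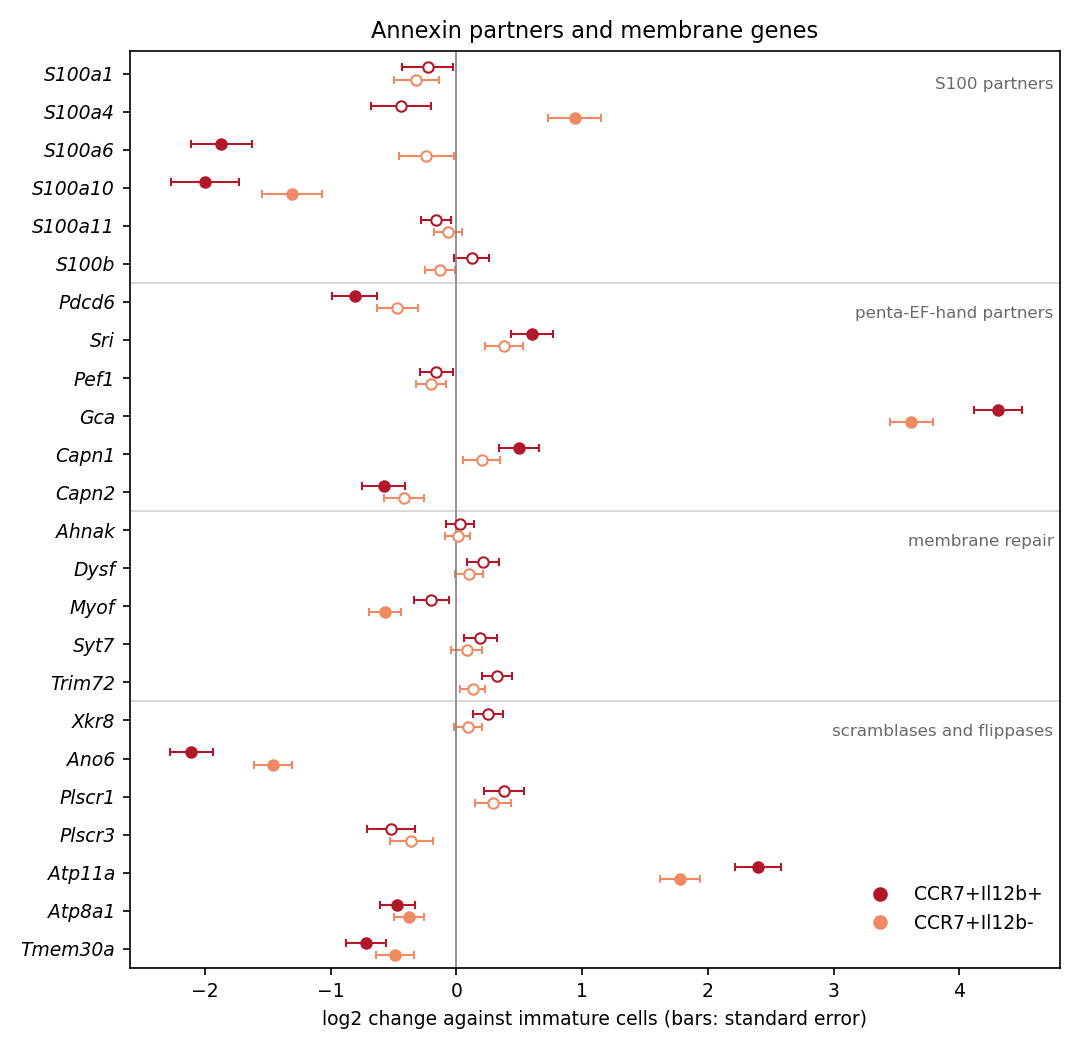
Log2 change against immature cells (horizontal axis) of S100, penta-EF-hand, membrane repair and scramblase or flippase genes (vertical axis) in CCR7+Il12b+ (dark red) and CCR7+Il12b- cells (orange), with bars for the standard error. Filled points passed at an adjusted p under 0.05. Gca (4.31 and 3.62) and Atp11a (2.40 and 1.78) lie furthest right, and Ano6 (-2.11 and -1.46) and S100a10 (-2.00 and -1.31) furthest left in both fractions together.

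Genes with the profile most like each wide-ranging annexin were taken by the root mean square difference of centred log2 values over the 8 arrays, among 12229 candidates. The nearest to Anxa3 were Socs2 (difference 0.22), Cd63 (0.35) and H2-M2 (0.36), and all 3 had immature means below the background mark (4.41, 4.58 and 4.84). The nearest to Anxa4 were Rnf115 (0.10), Ptger4, a prostaglandin E2 receptor gene (0.12), and Zc3h12c (0.13). The nearest to Anxa1 were Serpinb2, which encodes an inhibitor of plasminogen activators (0.18), BC028528 (0.30) and Nucb2 (0.30). The nearest to Anxa6 were Ifitm6 (0.12) and the cell division genes Kif23 (0.12) and Top2a (0.14). The 8 arrays fall into 3 fractions that all these profiles share.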

How the data were processed

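Each of 8 sorted samples went on its own array. Per the labels' protocols, either 3 or 20 ng of RNA was amplified in 2 rounds and given biotin; the sources used here do not say which sample had which input. The deposited values are log2 expression per probe set. RMA and oligo are the tools named in the submitters' processing notes, with no version or build. Of 35556 rows, 21789 had 1 symbol in the platform annotation, 1621 several and 12146 none in the table used, and the row with the highest mean was kept for each of 19938 genes.

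Group means of all 8 arrays were fitted with limma 3.58.1 (R 4.3.3), two-sided, with Benjamini-Hochberg adjustment over all genes and no filter; the procedure was tested on simulated data. The number of arrays limits the precision. Where a group mean lay below the background mark, the fold is a bound. Motifs and likeness were computed in Python 3.11.15. The members, gene lists and the rule for named genes (all 8 annexins, listed partners and markers, and the 3 nearest profiles of each annexin spanning at least 1 log2 unit) were chosen with earlier results of these data known. Alternatives covered normalization, filters, weights, the prior, blocks, rows of a gene and each array left out.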

Additional observations from a re-analysis of the deposited data

How the results depend on the processing

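Of 24 annexin changes (8 genes in 3 comparisons), 15 kept direction and side of the threshold under all of their 19 alternatives. Among them were Anxa1 and Anxa6 in every comparison and Anxa3 and Anxa4 against immature cells. For Anxa6 the second row entered only in a mean with the first. The 15 also include differences that stayed uncalled. These were Anxa2, Anxa5 and Anxa11 between the CCR7+ fractions and Anxa5 in CCR7+Il12b- against immature cells. The number of annexins called between the CCR7+ fractions was 3 with arrays centred on their medians and 2 to 5 with 1 array left out; against immature cells it was 5 to 6 for CCR7+Il12b+ and 5 throughout for CCR7+Il12b- cells with 1 array left out. An equal count could hide a change of members. Without immature replicate 3, Anxa2 entered (limma adjusted p = 0.027) and Anxa7 left (0.0502) in CCR7+Il12b- against immature cells. In CCR7+Il12b+ against immature cells Anxa5 entered (0.0456) and Anxa11 left (0.0937). Small uncalled differences turned sign. Anxa7 in CCR7+Il12b+ against immature cells was -0.02 after median centring and -0.09 to 0.33 with 1 array left out (-0.01 without immature replicate 1), and Anxa11 in CCR7+Il12b- against immature cells was 0.03 after loess or quantile normalization and -0.17 to 0.06 with 1 array left out (0.06 without immature replicate 3). Median centring shifted the median of all genes by -0.14 in CCR7+Il12b+ against immature cells and lowered the share of calls that were higher to 30.1%, against 44.1%, and to 27.7%, against 38.5%, in CCR7+Il12b- against immature cells. Genes called between the CCR7+ fractions numbered 1412, but 712 without CCR7+Il12b+ replicate 1, 786 without CCR7+Il12b- replicate 2, 925 without CCR7+Il12b- replicate 1 and 1771 without CCR7+Il12b- replicate 3. With replicate numbers as a fixed replicate block, 5, 5 and 4 annexins were called (Anxa11 at an adjusted p of 0.0697 and Anxa7 at 0.0573), and 6, 5 and 4 with a random one. The deviations of same-numbered arrays correlated at 0.214 and 0.127 between the CCR7+ fractions and at -0.139 to 0.092 with immature arrays. For differently numbered arrays the ranges were -0.214 to 0.098 and -0.096 to 0.166. The 2 CCR7+Il12b+ arrays deviate from their mean by equal and opposite amounts, so their correlations come in pairs of opposite sign. The labels do not say what a shared number marks, so the samples were not treated as paired. The causes of these shifts were not tested. Alternatives for partner and marker genes were added after the data were seen.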
